A study of Mus musculus with 12 samples.

Results

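*Hey1*, *Hey2*, *Heyl*, *Hes1* and *Hes6* belong to the hairy and enhancer-of-split families and are grouped here as Notch effectors, a choice that is not the study's own, and they were taken as the rows of the deposited gene count table whose Ensembl identifiers carry those symbols. They are 5 of the 35727 genes in that table, and all 5 passed the filter on low counts that left 15506 genes for testing. Bulk RNAseq had been made from cardiac fibroblasts of pooled neonatal C57BL/6J mouse hearts, which had been depleted of PECAM1-positive cells and selected for THY1. The cultures received pMX retroviruses that carried *Sox17* and *Erg*, 2 transcription factors of the endothelium, or the control pMX retrovirus. Both groups were kept in EGM2, an endothelial growth medium, and were collected at Day 3, Day 7 and 4 weeks. Each of the 6 groups held 2 libraries. The retroviral promoter acts in whichever cells are infected, and the bulk RNA came from the whole culture, so converted and unconverted cells were measured together. No label says that the 2 libraries of a group came from separate isolations, so p-values measure the spread between these libraries, which may be technical.

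Notch receptors are cut when a ligand on a neighboring cell binds them, and the released intracellular domain joins RBPJ and a Mastermind protein on DNA to switch target genes on. *Hey* and *Hes* genes are the classical targets, and they encode basic helix-loop-helix proteins that repress transcription, mostly with Groucho/TLE and other corepressors. HEY1 and HEY2 are known for arterial identity and for heart development, *Heyl* is prominent in vascular smooth muscle and pericytes, and *Hes1* is used by many cell types. HES6 differs from its relatives in that it can oppose HES1, and its gene is not generally driven by Notch.

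Library totals ran from 19011635 to 41240449 counts, and values are given below as CPM, the counts of a gene scaled to a common library total, after TMM scaling, a correction for composition. *Sox17* was at 0 to 9 counts in the 6 control libraries and at 10019 to 36238 counts in the 6 *Sox17*-*Erg* libraries. *Erg* was at 2 to 49 counts in control and at 389 to 1842 counts in *Sox17*-*Erg*. The control libraries of replicate 2 at Day 3 and Day 7 held the 49 and 34 counts of *Erg*, and *Cdh5*, the endothelial cadherin, was also higher there, at 14.3 and 8.08 CPM against 0.91 and 0.23 CPM in replicate 1. *Hey1* had 5 counts in each of the 2 control libraries at Day 3, and 6 and 13 counts in replicates 1 and 2 at Day 7. Counts this low do not show whether *Hey1* shared that gap. The 10 fibroblast markers, among them *Col1a1* and *Pdgfra*, all had counts in each of the 12 libraries and summed to between 12820 and 42010 CPM. All 9 cardiomyocyte, 5 epicardial and 5 macrophage markers also had counts in each library, so such counts do not show which cell types were present.

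The 5 genes lie on separate chromosomes in GRCm38. *Hey1* (ENSMUSG00000040289) spans positions 8663359 to 8667256 of chromosome 3 on the minus strand, and *Hey2* (ENSMUSG00000019789) spans positions 30832359 to 30842801 of chromosome 10 on the minus strand. *Heyl* (ENSMUSG00000032744) spans positions 123233556 to 123249875 of chromosome 4 on the plus strand. *Hes1* (ENSMUSG00000022528) lies at positions 30064384 to 30067796 of chromosome 16 on the plus strand, and *Hes6* (ENSMUSG00000067071) at positions 91411483 to 91414038 of chromosome 1 on the minus strand. None overlaps another annotated gene, and none of the 5 shares a 31-base word of transcript sequence with a gene of another name, so their counts could be told apart from those of their relatives.

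RefSeq promoter windows of GRCm38.p6 were at hand for *Hey2* and *Hes6*, which differed in response as described below, and the 250 bases before each start are shown 5′ to 3′ on the gene's strand to set a gene that was called higher beside one that was not called. Capitals mark a match to the RBPJ core TGGGAA, on either strand, in *Hey2* and to the N-box CACNAG, a sequence bound by HES proteins, in *Hes6*. The *Hey2* window lies at chr10:30842784-30843033 on the minus strand, and the *Hes6* windows lie at chr1:91414039-91414288 and chr1:91413223-91413472 on the minus strand.
Hey2: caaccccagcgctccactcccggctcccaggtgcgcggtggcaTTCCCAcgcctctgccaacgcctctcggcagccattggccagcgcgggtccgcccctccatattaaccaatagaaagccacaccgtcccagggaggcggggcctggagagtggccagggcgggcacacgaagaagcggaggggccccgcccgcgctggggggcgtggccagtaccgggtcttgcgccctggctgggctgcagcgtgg
Hes6, first start: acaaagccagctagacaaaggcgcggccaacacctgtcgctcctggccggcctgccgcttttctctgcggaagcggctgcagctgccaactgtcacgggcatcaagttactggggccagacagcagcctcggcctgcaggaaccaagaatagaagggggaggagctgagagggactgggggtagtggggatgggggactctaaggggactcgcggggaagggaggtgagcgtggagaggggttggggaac
Hes6, second start: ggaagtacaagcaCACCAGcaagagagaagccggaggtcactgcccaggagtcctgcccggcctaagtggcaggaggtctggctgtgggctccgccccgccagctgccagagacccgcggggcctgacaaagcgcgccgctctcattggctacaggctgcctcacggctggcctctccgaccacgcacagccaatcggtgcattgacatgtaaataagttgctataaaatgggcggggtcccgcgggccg

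The capitals in *Hey2* stand at bases -207 to -202 from the start and read TGGGAA on the other strand, and a further TGGGAA begins at base -3 and runs to base 3 across the start. TGGGAA on either strand occurs in 25.6% of the 32851 promoter windows in the RefSeq table, which reach from 250 bases before to 50 bases after each start, so its presence is common. The capitals in *Hes6* stand at bases -237 to -232 of the second window, and CACNAG occurs in 42.5% of all windows. A CACNAG on the other strand at bases 16 to 21 and the ETS core CCGGAA at bases -3 to 3 were also in the second *Hes6* window, and CCGGAA occurs in 14.9% of windows. None of the 3 windows held the E-box CACGTG (7.15% of all windows), the class C E-box CACGCG (9.27%) or the SOX core AACAAT (10.7%). The bases shown were rich in G and C, at 71.6% in *Hey2* and 63.6% and 64.0% in *Hes6*, against a median of 52.4% over all windows.

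At Day 3, 3 of the 5 genes were higher in *Sox17*-*Erg* than in control and none was lower, where 7.19% of the genes tested were higher, 5.13% lower and 12.3% changed in either direction (edgeR quasi-likelihood test with 1 mean per group, Benjamini-Hochberg adjusted p under 0.05). At Day 7, 4 of the 5 were higher, against 9.48% of the genes tested (7.93% were lower), and at 4 weeks the same 4 genes were higher, against 11.9% (11.0% were lower). The 5 genes were chosen with earlier results of these data known, so these shares do not test the group. The 3 *Hey* genes were higher than in control at every time point, *Hes1* was higher at Day 7 and 4 weeks, and *Hes6* passed the test at no time point. In bulk RNA, fewer cells of a type and less RNA per cell cannot be told apart, and the same holds for more cells and more RNA per cell.

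**Figure D1:**
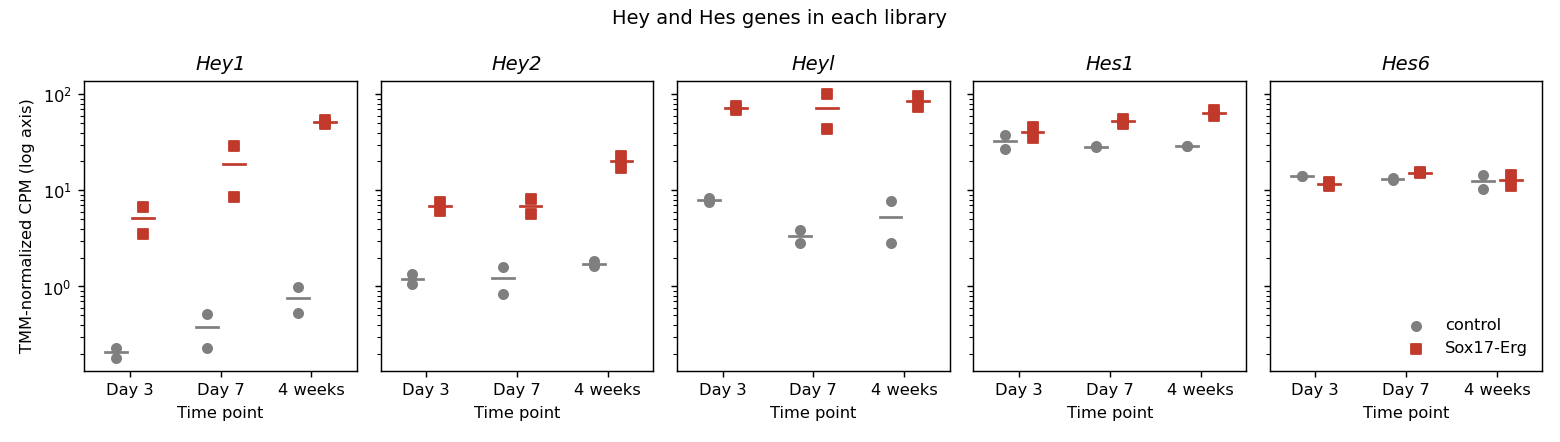
CPM of each gene (log axis) in every library at Day 3, Day 7 and 4 weeks, with gray circles for control, red squares for *Sox17*-*Erg* and a short line at the mean of 2 libraries. All 6 *Sox17*-*Erg* libraries lie above all 6 control libraries for the 3 *Hey* genes, whereas the groups overlap for *Hes1* at Day 3 and for *Hes6* at 4 weeks.

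*Hey1* encodes a repressor that acts with HEY2 in arterial specification, and it had the lowest control level of the 5 genes. In control, *Hey1* was at 0.182 and 0.231 CPM at Day 3, 0.23 and 0.522 CPM at Day 7, and 0.977 and 0.529 CPM at 4 weeks, which correspond to 5 to 39 counts per library. In *Sox17*-*Erg*, it was at 6.78 and 3.53 CPM at Day 3, 28.8 and 8.61 CPM at Day 7, and 49.2 and 54.1 CPM at 4 weeks. The lowest *Sox17*-*Erg* library was thus above the highest control library at each time point, and the 2 *Sox17*-*Erg* libraries at Day 7 were far apart. The fitted log2 fold change of *Hey1* was 4.62 (SE 0.776, edgeR adjusted p = 0.0087) at Day 3, 5.63 (SE 0.695, edgeR adjusted p = 0.001) at Day 7 and 6.04 (SE 0.649, edgeR adjusted p = 0.00028) at 4 weeks. The call for *Hey1* at Day 3 was lost without control replicate 1, control replicate 2 or *Sox17*-*Erg* replicate 1 of that day, when the log2 fold change was 4.44, 4.75 and 4.04 and the adjusted p was 0.077, 0.066 and 0.063, respectively. At the later time points *Hey1* was called in all 12 fits that each left out 1 library. Its log2 fold change at Day 7 ran there from 4.51, without *Sox17*-*Erg* replicate 1 of that day, to 6.32, without control replicate 2. At 4 weeks it ran from 5.72 to 6.6. In the 3 Day 3 fits without the call, the genes called higher among all tested also fell, from 1115 to 259, 201 and 206.

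*Hey2* encodes the repressor known for the arterial against venous choice and for ventricular development. *Hey2* was at 1.06 and 1.34 CPM in control at Day 3, 1.61 and 0.844 CPM at Day 7, and 1.83 and 1.63 CPM at 4 weeks. In *Sox17*-*Erg*, *Hey2* was at 6.12 and 7.5 CPM at Day 3, 8.16 and 5.67 CPM at Day 7, and 23.0 and 17.0 CPM at 4 weeks. The treated libraries sat well above control throughout, with a plateau from Day 3 to Day 7 and the highest values at 4 weeks. The log2 fold change of *Hey2* was 2.51 (SE 0.337, edgeR adjusted p = 0.0032) at Day 3, 2.49 (SE 0.333, edgeR adjusted p = 0.0015) at Day 7 and 3.53 (SE 0.332, edgeR adjusted p = 0.00014) at 4 weeks. *Hey2* was the one *Hey* gene whose Day 3 call held in all 12 fits that each left out 1 library, with adjusted p between 0.0024 and 0.042. Its log2 fold change ran from 2.1 to 3.01 at Day 7 and from 3.28 to 3.7 at 4 weeks over these fits.

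*Heyl*, the *Hey* relative linked to mural cells, was the most abundant *Hey* gene in control. *Heyl* was at 8.33 and 7.58 CPM in control at Day 3, 3.84 and 2.81 CPM at Day 7, and 2.86 and 7.69 CPM at 4 weeks. In *Sox17*-*Erg* it had already reached 67.9 and 75.8 CPM at Day 3, and it was at 100.2 and 43.4 CPM at Day 7 and 73.9 and 96.9 CPM at 4 weeks. The 3 *Sox17*-*Erg* groups overlapped each other, and all of them lay above every control library. The log2 fold change of *Heyl* was 3.17 (SE 0.485, edgeR adjusted p = 0.0059) at Day 3, 4.43 (SE 0.522, edgeR adjusted p = 0.00083) at Day 7 and 4.05 (SE 0.505, edgeR adjusted p = 0.00066) at 4 weeks. Without control replicate 1 or 2 of Day 3, *Heyl* was no longer called at Day 3, with log2 fold changes of 3.24 and 3.07 and adjusted p of 0.056 and 0.061. *Heyl* was called in all 12 such fits at Day 7 and 4 weeks. It ran from 3.7, without *Sox17*-*Erg* replicate 1, to 4.87, without replicate 2, at Day 7. At 4 weeks it ran from 3.47, without control replicate 1, to 4.91, without replicate 2.

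*Hes1* encodes a widely used repressor that blocks premature differentiation in many lineages, and it was expressed in control at a far higher level than the *Hey* genes. *Hes1* was at 27.2 and 37.9 CPM in control at Day 3, 28.9 and 28.1 CPM at Day 7, and 28.7 and 29.0 CPM at 4 weeks. In *Sox17*-*Erg*, *Hes1* was at 35.4 and 45.5 CPM at Day 3, 54.9 and 49.5 CPM at Day 7, and 69.1 and 59.2 CPM at 4 weeks. Groups overlapped at Day 3 and were apart afterward, with close replicates in control at the later time points. The log2 fold change of *Hes1* was 0.32 (SE 0.175, edgeR adjusted p = 0.26) at Day 3, 0.87 (SE 0.175, edgeR adjusted p = 0.0099) at Day 7 and 1.15 (SE 0.176, edgeR adjusted p = 0.0018) at 4 weeks. The Day 7 call for *Hes1* was lost without control replicate 2 or *Sox17*-*Erg* replicate 1 of that day. Its log2 fold change at Day 7 ran from 0.8 to 0.91 over the 12 fits that each left out 1 library.

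*Hes6*, the family member that can oppose HES1, stayed within a narrow range. *Hes6* was at 14.2 and 14.0 CPM in control at Day 3, 13.6 and 12.9 CPM at Day 7, and 14.4 and 10.5 CPM at 4 weeks. In *Sox17*-*Erg*, *Hes6* was at 12.1 and 11.1 CPM at Day 3, 15.52 and 15.03 CPM at Day 7, and 11.2 and 14.6 CPM at 4 weeks. Treated libraries were below control at Day 3, above control at Day 7 and overlapping at 4 weeks. The log2 fold change of *Hes6* was -0.28 (SE 0.18, edgeR adjusted p = 0.33) at Day 3, 0.21 (SE 0.178, edgeR adjusted p = 0.46) at Day 7 and 0.05 (SE 0.178, edgeR adjusted p = 0.87) at 4 weeks, so each difference was less than 2 standard errors from 0.

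**Figure D2:**
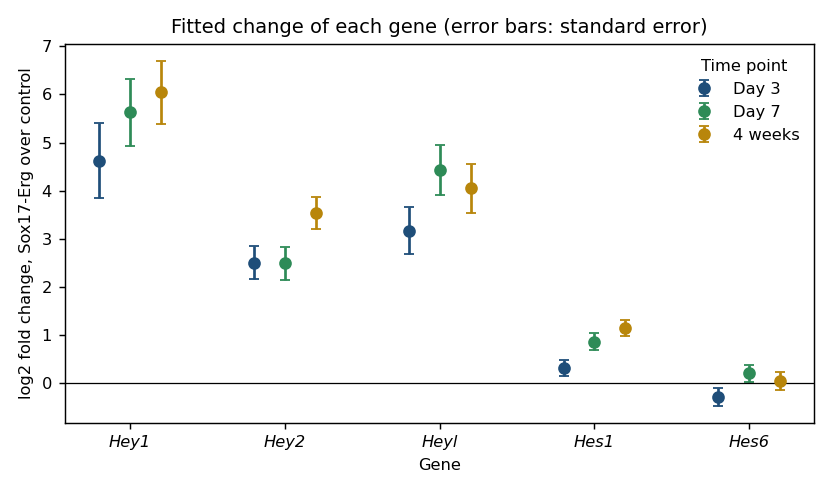
Fitted log2 fold change of *Sox17*-*Erg* over control for each gene at Day 3 (blue), Day 7 (green) and 4 weeks (gold), with error bars of 1 standard error. *Hey1* has the largest values, from 4.62 to 6.04, followed by *Heyl* and *Hey2*, while *Hes1* runs from 0.32 to 1.15 and *Hes6* lies around 0.

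With 2 libraries against 2, groups that do not overlap are common, since at Day 3 34.1% of the genes tested had both *Sox17*-*Erg* libraries above both control libraries and 29.9% had both below. At Day 7 these shares were 29.0% and 28.8%, and at 4 weeks 30.3% and 32.5%. Over all time points together, the 6 *Sox17*-*Erg* libraries were above the 6 control libraries for *Hey1*, *Hey2* and *Heyl*, as they were for 7.01% of the genes tested. When treatment labels were exchanged within time points in an exact two-sided permutation test with 216 arrangements, the mean log2 CPM difference was 5.13 for *Hey1*, 2.79 for *Hey2* and 3.87 for *Heyl*, each with permutation p = 0.0093, the smallest the design allows. *Hes1* differed by 0.78 (exact permutation p = 0.019) and *Hes6* by -0.01 (exact permutation p = 0.97). These p-values too belong to genes chosen with earlier results of these data known.

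Within *Sox17*-*Erg*, from Day 3 to 4 weeks, *Hey1*, *Hey2* and *Hes1* rose, which are 3 of the 5 genes, against 15.1% of the genes tested. The log2 fold change between these time points was 3.33 for *Hey1* (SE 0.553, edgeR adjusted p = 0.0032), 1.55 for *Hey2* (SE 0.303, edgeR adjusted p = 0.0062) and 0.66 for *Hes1* (SE 0.174, edgeR adjusted p = 0.02). *Heyl* changed by 0.25 (SE 0.436, edgeR adjusted p = 0.71) and *Hes6* by 0.15 (SE 0.18, edgeR adjusted p = 0.56), neither of which passed the test. The call for *Hes1* was lost without *Sox17*-*Erg* replicate 1 of Day 3 or replicate 1 of 4 weeks. Over the fits that each left out 1 library, its log2 fold change ran from 0.55 to 0.86.

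Between Day 3 and Day 7 within *Sox17*-*Erg*, 0 of the 5 genes passed the edgeR test, against 3.42% of the genes tested, while *Hey1* alone had an unadjusted p under 0.05 and was the 1 gene called by DESeq2. *Hey1* differed by 1.87 on the log2 scale (SE 0.53, edgeR adjusted p = 0.08), with a range from 0.75 without *Sox17*-*Erg* replicate 1 of Day 7 to 2.52 without replicate 2 (adjusted p = 0.31 and 0.042), and *Hey2* by 0.03 (SE 0.301, edgeR adjusted p = 0.97). Between Day 7 and 4 weeks, *Hey2* was higher by 1.53 (SE 0.301, edgeR adjusted p = 0.04), which makes 1 of the 5 genes against 1.15% of the genes tested to be higher. Its call was lost in 10 of the 12 fits that each left out 1 library, where *Hey2* ranged from 1.3 to 1.82. *Hey1* was higher by 1.46 between the same time points (SE 0.504, edgeR adjusted p = 0.17), with 2.58 and 0.86 without *Sox17*-*Erg* replicate 1 or 2 of Day 7.

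In control, 0 of the 5 genes passed the edgeR test between any 2 time points, against 8.76% of the genes tested for Day 7 over Day 3, 0.393% for 4 weeks over Day 7 and 26.5% for 4 weeks over Day 3. At an unadjusted p under 0.05 there was 1 gene in the comparison of Day 7 with Day 3, *Heyl*, and 0 in the other comparisons, while DESeq2 called 1 gene, 0 and 1 gene, respectively. *Heyl* changed by -1.26 from Day 3 to Day 7 (SE 0.497, edgeR adjusted p = 0.14), and *Hey1* by 1.91 from Day 3 to 4 weeks (SE 0.891, edgeR adjusted p = 0.15).

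Whether the effect of *Sox17*-*Erg* itself changed between time points was tested as an interaction. For Day 7 against Day 3, 4 weeks against Day 7 and 4 weeks against Day 3, 0 of the 5 genes passed the edgeR test, where 0.0838%, 0.0387% and 3.21% of the genes tested did. One gene had an unadjusted p under 0.05 in each, namely *Hes1*, *Hey2* and *Hes1*, and DESeq2 called 0, 0 and 1 gene. The effect on *Hes1* was larger at 4 weeks than at Day 3 by 0.84 (SE 0.247, edgeR adjusted p = 0.12). For *Hey1* this difference was 1.42 (SE 1.16, edgeR adjusted p = 0.61), for *Hey2* 1.01 (SE 0.455, edgeR adjusted p = 0.3) and for *Heyl* 0.87 (SE 0.647, edgeR adjusted p = 0.57).

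Levels of different genes were compared per kilobase of annotated exons, since longer transcripts yield more reads. In control, *Hes1* was the most abundant of the 5 genes, with a mean of 16.0, 14.0 and 14.2 CPM per kilobase at Day 3, Day 7 and 4 weeks, followed by *Hes6* at 7.81, 7.32 and 6.86. *Heyl* came next at 1.56, 0.651 and 1.03 CPM per kilobase, then *Hey2* at 0.261, 0.267 and 0.376 and *Hey1* at 0.0633, 0.115 and 0.231. The order at 4 weeks in *Sox17*-*Erg* was *Hes1* at 31.5 ± 3.42 (SD, n = 2), *Heyl* at 16.7 ± 3.18 (SD, n = 2), *Hey1* at 15.8 ± 1.06 (SD, n = 2), *Hes6* at 7.13 ± 1.33 (SD, n = 2) and *Hey2* at 4.36 ± 0.936 (SD, n = 2) CPM per kilobase. *Heyl* and *Hey1* differed by less than their spread there, and *Hey1* had moved from the lowest place in control past *Hey2* and *Hes6*.

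The summed level of the 5 genes ran from 21.8 to 28.2 CPM per kilobase in control and from 40.8 to 76.3 in *Sox17*-*Erg*. The 3 *Hey* genes made up 4.1% to 9.17% of that sum in the control libraries and 27.5% to 51.3% in the *Sox17*-*Erg* libraries. *Heyl* was the main *Hey* transcript at Day 3, at 32.6% and 32.2% of the sum, when *Hey1* held 5.09% and 2.35%. By 4 weeks *Hey1* held 20.2% and 21.7%, next to 19.4% and 24.8% for *Heyl* and 6.72% and 4.84% for *Hey2*. *Hes1* remained the largest single contributor in every library, at 57.7% to 66.0% in control and 38.1% to 54.0% in *Sox17*-*Erg*. Since these are shares of a sum, a lower share of *Hes1* does not mean a lower level, and its level passed the test as higher at Day 7 and 4 weeks and did not pass at Day 3.

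**Figure D3:**
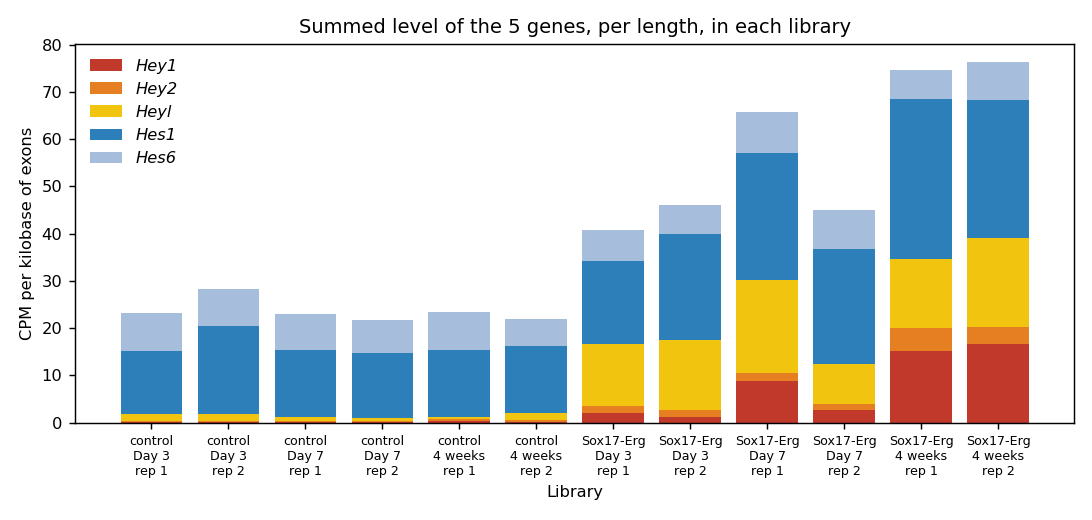
Stacked bars of CPM per kilobase of exons for *Hey1*, *Hey2*, *Heyl*, *Hes1* and *Hes6* in each of the 12 libraries. Control bars end between 21.8 and 28.2 with thin *Hey* segments at their base, and *Sox17*-*Erg* bars end between 40.8 and 76.3 with *Hey* segments of 27.5% to 51.3%.

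The order of group levels within each gene was read from the libraries. For *Hey1*, *Sox17*-*Erg* at 4 weeks was highest, then Day 7, then Day 3, with no overlap between neighbors, followed by control at 4 weeks, Day 7 and Day 3, of which the last 2 overlapped. For *Hey2*, *Sox17*-*Erg* at 4 weeks was highest and Day 7 and Day 3 overlapped. All neighboring groups of *Heyl* overlapped within each treatment. *Hes1* fell into *Sox17*-*Erg* at 4 weeks, then Day 7, then a run of overlapping groups made of *Sox17*-*Erg* at Day 3 and the 3 control groups. For *Hes6* the order of groups followed neither treatment nor time, with *Sox17*-*Erg* at Day 7 highest and *Sox17*-*Erg* at Day 3 lowest.

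The *Sox17*-*Erg* libraries of Day 7 differed from each other more than those of the other time points for *Hey1* and *Heyl*, as *Hey1* was at 28.8 and 8.61 CPM and *Heyl* at 100.2 and 43.4 CPM in replicates 1 and 2. *Hes1* and *Hes6* were close in the same libraries. *Cdh5* was at 400.1 and 248.3 CPM, *Sox17* at 999.1 and 790.7 CPM and *Pecam1* at 57.5 and 33.6 CPM in these libraries. The summed level of 10 smooth muscle and pericyte markers was 4911 and 2497 CPM, and that of 10 cycling markers was 935 and 365 CPM. The part of these differences in the *Hey1* and *Heyl* values was not tested.

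Markers of other cell types were also called. At Day 3, Day 7 and 4 weeks, 7.19%, 9.48% and 11.9% of all genes tested were higher. At the same time points, 5.13%, 7.93% and 11.0% were lower. Of the endothelial markers, 4, 5 and 6 of the 9 tested were higher in *Sox17*-*Erg* at Day 3, Day 7 and 4 weeks, with 0, 0 and 1 lower (*Eng*). *Cdh5*, *Emcn* and *Kdr* were higher at all 3 time points, *Tek* at Day 3 and Day 7, *Pecam1* at Day 7 and 4 weeks, and *Egfl7* and *Tie1* at 4 weeks. The calls for *Cdh5* at Day 3 and for *Egfl7* and *Eng* at 4 weeks held in 3, 3 and 2 of the 12 leave-one-out fits, and *Cdh5* ran there from 3.64 without control replicate 1 of Day 3 to 7.57 without replicate 2. The summed level of all 10 ranged from 397 to 1522 CPM in control and from 662 to 1282 CPM in *Sox17*-*Erg*. *Eng*, which stromal cells also express, made up most of that sum in control, at 369 to 1501 CPM there and 225.2 to 654.3 CPM in *Sox17*-*Erg*, so the sum does not follow the other endothelial markers. Of the smooth muscle and pericyte markers, 1, 5 and 4 of 10 were higher and 0, 1 and 3 lower, and their sum ranged from 1200 to 4085 CPM in control and from 2497 to 5026 CPM in *Sox17*-*Erg*. *Rgs5*, a pericyte gene, was higher at all 3 time points and *Myh11* and *Cnn1*, of contractile smooth muscle, at Day 7 and 4 weeks, as was *Cspg4*, with *Acta2* at Day 7, whereas the lower genes were *Des* at both later time points and *Abcc9* and *Kcnj8* at 4 weeks. The calls for *Acta2* and *Cnn1* at Day 7 held in 5 and 3 of the 12 leave-one-out fits and that for *Kcnj8* in 1, and *Kcnj8* did not pass by DESeq2 (adjusted p = 0.12). Over these fits, endothelial markers higher numbered 2 to 4, 4 to 6 and 4 to 7. The count of 2 came without *Sox17*-*Erg* replicate 1 of Day 3. Smooth muscle and pericyte markers higher numbered 1, 3 to 5 and 3 to 5. All 10 of these markers had counts in every *Sox17*-*Erg* library, and of the endothelial markers *Cldn5* was at 0 in 2 control and 2 *Sox17*-*Erg* libraries. Within control, *Heyl* had its highest values in the 2 libraries of Day 3 and in replicate 2 of 4 weeks, where the smooth muscle and pericyte sum was 4085, 3783 and 3211 CPM. Across treatments the order was another, as *Sox17*-*Erg* replicate 2 of Day 7 had a sum of 2497 CPM with *Heyl* at 43.4 CPM, and control replicate 1 of Day 3 a sum of 4085 CPM with *Heyl* at 8.33 CPM. The part of mural cells in the *Heyl* values was not tested.

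Of the other lists, fibroblast markers were lower in 1, 3 and 4 of 10 cases by edgeR and in 5, 4 and 5 by DESeq2. By edgeR, 5.13%, 7.93% and 11.0% of all genes tested were lower and 7.19%, 9.48% and 11.9% higher. Among the markers lower by edgeR were *Pdgfra*, *Dcn* and *Lum* at Day 7 and 4 weeks and *Tcf21* at Day 3 and 4 weeks. *Postn* was the 1 marker higher by edgeR at Day 7 and at 4 weeks, where DESeq2 called 2 and 1 higher, and the calls for *Pdgfra* at Day 7 and *Tcf21* at 4 weeks held in 3 and 6 of the 12 leave-one-out fits. Over these fits the fibroblast markers lower numbered 0 to 4, 1 to 4 and 1 to 4 at Day 3, Day 7 and 4 weeks, with 1 at 4 weeks without either *Sox17*-*Erg* library. Their sum ranged from 16650 to 40260 CPM in control and from 12820 to 42010 CPM in *Sox17*-*Erg*. Cardiomyocyte markers were lower in 2 (*Myl7* and *Tnnt2*), 3 (*Myh6*, *Myl2* and *Tnni3*) and 7 of 9 cases by edgeR and in 2, 5 and 8 by DESeq2, with sums of 649 to 1538 CPM in control and 332 to 689 CPM in *Sox17*-*Erg*. The call for *Tnni3* at Day 7 held in 0 of the 12 leave-one-out fits, and that for *Myl7* at Day 3 in 5, with log2 fold changes from -3.87 to -1.56. Without *Sox17*-*Erg* replicate 1 of the same time point, the cardiomyocyte markers lower numbered 0 at Day 3, 0 at Day 7 and 3 at 4 weeks, where *Actn2*, *Myl7*, *Nppa* and *Ttn* were lost. Epicardial markers were lower in 1 (*Upk3b*), 3 (*Krt19*, *Upk3b* and *Wt1*) and 5 of 5 cases by edgeR and in 4, 5 and 5 by DESeq2, with sums of 254 to 1364 CPM in control and 115 to 309 CPM in *Sox17*-*Erg*. The 1 epicardial call at Day 3 was lost without control replicate 1 or either *Sox17*-*Erg* library of that day. The 3 at Day 7 were lost without control replicate 1 or *Sox17*-*Erg* replicate 1 of that day. The 5 at 4 weeks fell to 1 (*Wt1*) without *Sox17*-*Erg* replicate 2 of that time point. Cycling markers were higher in 0, 0 and 6 of 10 cases by edgeR, in 5, 0 and 7 at an unadjusted p under 0.05 in either direction and in 2, 0 and 7 by DESeq2, with sums of 46.9 to 556 CPM in control and 100.1 to 1426 CPM in *Sox17*-*Erg*. All 6 calls at 4 weeks were lost without either control library or *Sox17*-*Erg* replicate 2 of that time point. Without the last of these, the log2 fold change of *Mki67* was 1.28 in place of 2.25 (edgeR adjusted p = 0.23). Macrophage markers passed the edgeR test in 0 of 5 cases at each time point, as at an unadjusted p under 0.05 and by DESeq2. Of 3 Schwann and neural markers tested, *S100b* was lower at Day 3, and the sum of that list was no more than 3.86 CPM in any library.

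Other genes of the Notch pathway were read in the same samples. Of the 62 pathway genes tested other than the 5, 9 were higher and 1 lower at Day 3 (16.1%, against 12.3% of all genes tested), 13 were higher and 3 lower at Day 7 (25.8%, against 17.4%), and 15 were higher and 5 lower at 4 weeks (32.3%, against 22.9%). The median log2 fold change of the 62 genes was 0.01, 0.11 and 0.11, and that of all genes tested was 0.01, 0.006 and -0.014.

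Of the 4 receptors, *Notch3* was higher at all 3 time points, and *Notch1* and *Notch4* at Day 7 and 4 weeks. *Notch3*, the receptor known for mural cells, was at 74.3 and 115.3 CPM in control at Day 3, 70.9 and 71.0 CPM at Day 7, and 62.6 and 62.8 CPM at 4 weeks. In *Sox17*-*Erg*, *Notch3* was at 162.6 and 270.2 CPM, 491.1 and 427.2 CPM, and 519.6 and 609.5 CPM. The groups were apart at each time point, as they were in this direction for 34.1%, 29.0% and 30.3% of all genes tested. The log2 fold change of *Notch3* was 1.19 (SE 0.257, edgeR adjusted p = 0.02), 2.69 (SE 0.27, edgeR adjusted p = 0.00037) and 3.17 (SE 0.275, edgeR adjusted p = 9.3e-05). *Notch1*, the main receptor of arterial endothelium, had log2 fold changes of 0.54, 1.15 and 1.98, and *Notch4*, an endothelial receptor, of 1.18, 1.37 and 1.79, of which the Day 3 values did not pass the edgeR test (adjusted p = 0.062 and 0.054) and passed by DESeq2 (adjusted p = 0.035 and 0.006). The Day 3 call for *Notch3* was lost without control replicate 1 or *Sox17*-*Erg* replicate 2 of that day, at log2 fold changes of 0.91 and 0.78, and the Day 7 call for *Notch4* without control replicate 2 or *Sox17*-*Erg* replicate 1 of that day, at 1.09 and 1.16. *Notch2* passed at no time point, with log2 fold changes of -0.26, 0.16 and 0.24.

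Of the 5 ligands tested, *Jag1* was higher at all time points, and *Jag2* and *Dll4* at Day 7 and 4 weeks. *Jag1* was at 49.9 to 84.1 CPM in the control libraries and at 322.2 to 587.6 CPM in the *Sox17*-*Erg* libraries, with log2 fold changes of 2.63 (SE 0.295, edgeR adjusted p = 0.0014), 2.78 (SE 0.297, edgeR adjusted p = 0.00051) and 3.31 (SE 0.304, edgeR adjusted p = 0.00013). *Dll4*, the ligand of arterial and tip cells, was at 0 to 5 counts in the control libraries. It was at 31 and 21 counts in *Sox17*-*Erg* at Day 3, at 615 and 31 counts at Day 7, and at 2356 and 2563 counts at 4 weeks. *Dll4* was thus at least 904-fold higher at 4 weeks against a floor of 3 counts per control library, where both had 0 counts. The Day 7 call for *Dll4* was lost without either control library of that day (adjusted p = 0.074 and 0.09), and its log2 fold change ran from 4.04 to 7.63 over the leave-one-out fits. Its replicates at Day 7 were unequal in the same direction as those of *Hey1*. *Jag2* had log2 fold changes of 0.44 at Day 3, which did not pass the test, 3.78 at Day 7 and 4.63 at 4 weeks. Over the leave-one-out fits *Jag2* ran from 2.89 to 4.28 at Day 7 and from 4.05 to 6.04 at 4 weeks. *Dlk1*, which encodes a ligand without the usual receptor-binding domain, was lower at Day 7 with a log2 fold change of -3.8 (SE 0.708, edgeR adjusted p = 0.0072). The control libraries of *Dlk1* at that time were unequal, at 36.0 and 6.75 CPM against 1.6 and 1.45 CPM in *Sox17*-*Erg*, and over the leave-one-out fits its log2 fold change ran from -4.55 to -2.17, with the call lost without *Sox17*-*Erg* replicate 1 of Day 7.

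Genes that process receptors or act with them in the nucleus came next. Of the 25 processing and trafficking genes, 1 was higher at each time point and 1, 1 and 3 were lower. The shares called were 8.0%, 8.0% and 16.0%, below the 12.3%, 17.4% and 22.9% of all genes tested. *Aph1b* and *Psen2*, subunits of the gamma-secretase that cuts Notch, moved in opposite directions, with *Aph1b* higher by 2.45, 2.48 and 1.69 and *Psen2* changed by -0.92, -0.83 and -0.77 on the log2 scale, and both passed the test at all 3 time points. *Poglut1*, which adds sugar to Notch receptors, was lower at 4 weeks, with a log2 fold change of -0.43, a call that held in 3 of the 12 leave-one-out fits. Of the 7 genes of the nuclear complex, 0 passed the edgeR test at Day 3, where 1 had an unadjusted p under 0.05 and DESeq2 called 0. At Day 7 and at 4 weeks 28.6% of the 7 were called, against 17.4% and 22.9% of all genes tested. *Maml3* and *Kat2b*, which encode coactivators, were higher at Day 7 (0.69 and 0.36) and 4 weeks (0.68 and 0.39), and the Day 7 call for *Kat2b* held in 1 of these fits.

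The corepressors that HES and HEY proteins recruit showed changes in 3, 3 and 4 of 14 genes tested (21.4%, 21.4% and 28.6%, against 12.3%, 17.4% and 22.9% of all genes tested). DESeq2 called 3 higher and 2 lower at each time point. Leaving out 1 library moved the edgeR counts, so they do not place this list above all genes. Of the Groucho/TLE genes, *Tle1* was higher at Day 3 (0.74) and *Tle3* at 4 weeks (0.42). Over the leave-one-out fits these values ran from 0.58 to 0.86 and from 0.26 to 0.52. *Tle2* had log2 fold changes of -1.28, -1.18 and -1.05, which did not pass the edgeR test (adjusted p = 0.082, 0.085 and 0.1) and passed by DESeq2 (adjusted p = 0.015, 0.024 and 0.049). *Tle6* had log2 fold changes of -1.11, -0.56 and -0.46, none of which passed by edgeR, with Day 3 passing by DESeq2 (adjusted p = 0.033). *Tle4*, of the same family, was higher by 0.97 at Day 3 and 1.24 at Day 7, with 0.59 at 4 weeks, which did not pass the test. *Hdac2*, a histone deacetylase, was higher by 0.53 at Day 3 and 0.4 at 4 weeks. *Runx1t1* was lower at Day 7 and 4 weeks, with log2 fold changes of -1.16 and -1.48. The Day 7 call for *Runx1t1* held in 5 of the 12 leave-one-out fits, with a log2 fold change of -0.64 without control replicate 2 of that day, those for *Hdac2* at Day 3 and 4 weeks in 6 and 3, and that for *Tle4* at Day 3 in 4, with 0.51 without *Sox17*-*Erg* replicate 1 of that day. Of the *Id* genes, whose proteins lack a DNA-binding region and pair with helix-loop-helix factors, *Id4* was higher at every time point (1.19, 1.59 and 3.39), *Id2* was lower at Day 7 and 4 weeks (-0.93 and -0.67), and *Id1* and *Id3* passed at no time point. The calls for *Id4* at Day 3 and *Id2* at 4 weeks held in 2 and 6 of the 12 fits.

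**Figure D4:**
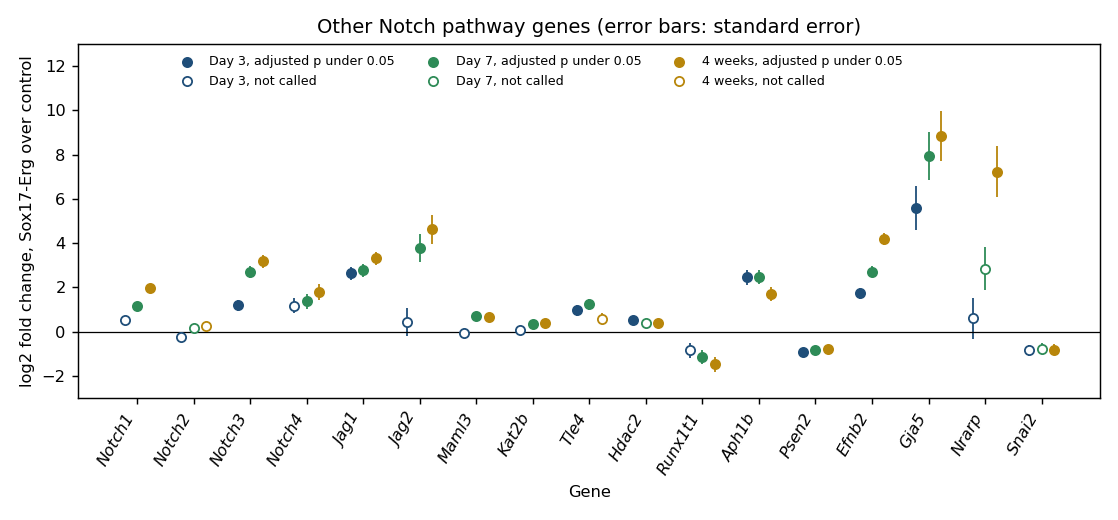
Fitted log2 fold change of *Sox17*-*Erg* over control, with standard errors, for receptors, ligands, nuclear and processing genes, corepressors and other targets of the Notch pathway at Day 3 (blue), Day 7 (green) and 4 weeks (gold). Filled points have an adjusted p under 0.05. *Gja5* is the highest at each time point, *Notch3* climbs from 1.19 to 3.17 and *Psen2* stays below 0, and *Dll4* is left out because its fitted value rests on control libraries with 0 counts at 4 weeks.

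Among the 8 other known Notch targets, 3, 2 and 3 were higher and 0, 0 and 1 lower, with *Myc* among those higher at Day 3. *Gja5*, the arterial gap junction gene, had log2 fold changes of 5.58, 7.93 and 8.84, and *Efnb2*, the arterial ephrin, of 1.74, 2.71 and 4.19, and both passed at all time points. *Gja5* was at 52.1 and 13.2 CPM at Day 3, 154.9 and 29.0 CPM at Day 7 and 129.2 and 146.7 CPM at 4 weeks in *Sox17*-*Erg*, so its replicates were unequal at the earlier time points, and 0.23 to 0.786 CPM in control. Its Day 3 call was lost without either control library or *Sox17*-*Erg* replicate 1 of that day, at log2 fold changes of 5.36, 5.76 and 4.24, and at Day 7 its log2 fold change ran from 6.26 to 8.64 over the leave-one-out fits, all of which called it. *Nrarp*, which encodes a feedback inhibitor of Notch, was at 18 and 22 counts in control and 26 and 28 counts in *Sox17*-*Erg* at Day 3, and at 5 and 0 counts against 373 and 285 counts at 4 weeks, the time point at which it was called. *Snai2*, a factor of mesenchymal cells, was lower at 4 weeks with a log2 fold change of -0.82 (SE 0.244, edgeR adjusted p = 0.04), a call that held in 6 of the 12 leave-one-out fits. Genes of the arterial list were higher in 7, 10 and 11 of 13 cases by edgeR, against 7.19%, 9.48% and 11.9% of all genes tested. Those lower numbered 0 by edgeR at each time point and 1, 1 and 0 by DESeq2. That list holds *Efnb2*, *Gja5*, *Dll4*, *Jag1* and *Jag2* as well, and all lists were chosen with earlier results of these data known. Of the 6 venous genes tested, 2, 1 and 2 were higher and 1, 0 and 1 lower, with *Emcn* higher at all 3 time points (4.0, 4.54 and 4.63), *Nr2f2* at Day 3 (0.71), *Vwf* at 4 weeks (4.53) and *Nrp2* lower at Day 3 and 4 weeks (-1.19 and -1.11, the former in 6 of the 12 leave-one-out fits).

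Genes of the BMP pathway, which can also raise *Hey1* and *Hes1*, changed in 2 of 7 cases at each time point (28.6%, against 12.3%, 17.4% and 22.9% of all genes tested). *Smad7*, an inhibitor of the pathway, was higher by 0.8, 0.81 and 0.64. *Atoh8* was lower at Day 3 with a log2 fold change of -0.83, and *Id2*, described above, was the lower gene at the later time points. The call for *Atoh8* held in 7 of the 12 leave-one-out fits and those for *Smad7* in 9, 10 and 9.

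Of the other *Hes* relatives, *Hes2*, *Hes3* and *Hes5* did not pass the filter on low counts. Of the 4 tested, 0, 0 and 2 were higher by edgeR, against 7.19%, 9.48% and 11.9% of all genes tested. At an unadjusted p under 0.05 in either direction there were 1, 2 and 3, and DESeq2 called 1 lower at Day 3, 0 at Day 7 and 3 higher at 4 weeks. *Hes5*, a classical target in neural cells, had 0 counts in 10 libraries and 3 counts in each *Sox17*-*Erg* library of 4 weeks, which is at the floor. *Hes7*, the gene of the segmentation clock, was at 3 to 30 counts with no call. *Helt*, which encodes a HEY-like repressor, had 0 counts in all 6 control libraries and 20 and 20 counts in *Sox17*-*Erg* at 4 weeks, at least 7.35-fold above the floor of 3 counts per library, and 20 and 3 counts at Day 7. *Bhlhe40*, a stress and clock repressor, was higher at 4 weeks by 1.35 (SE 0.247, edgeR adjusted p = 0.0046).

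Likeness of profiles was measured as the root mean square difference between centered log2 CPM profiles over the 12 libraries, where 0 means the same shape and size of change. The genes nearest to *Hey1* were *Sostdc1* (0.751), *Bmx* (0.796) and *Rasgrp3* (0.805), against a median of 2.86 over all genes tested. With a smaller prior count of 0.5 the nearest were *Slc16a14*, *Klhl34* and *Rasgrp3*, so the choice for *Hey1* rests on how its low control counts are treated. The genes nearest to *Hey2* were *Pde3b* (0.385), *Fez1* (0.407) and *Jun* (0.43), against a median of 1.57. *Heyl* was nearest to *Rims1* (0.456), *Piezo2* (0.49) and *Ptprb* (0.53), against 2.04. For *Hes1* they were *Lypla2* (0.119), *Arhgap42* (0.132) and *Furin* (0.141), against 0.609, and for *Hes6* *Map1lc3a* (0.112), *Mief2* (0.116) and *Mcrip1* (0.117), against 0.421. Among the 5 genes themselves, *Hes1* and *Hes6* were 0.483 apart, *Heyl* and *Hey2* 0.896, and *Hes6* and *Hey1* 2.81, the widest pair. These distances are descriptions over libraries that share treatment and time, and genes with small changes have small distances.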

How the data were processed

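Per the labels and the study's methods, RNA was extracted with TRIzol, libraries were made with a Kapa stranded mRNA kit and sequenced in pairs. The authors demultiplexed with bcl2fastq 2.20.0, trimmed high GC content with BBDuk and quantified with Salmon, whose version is not given in the sources used here, on mm10. The deposited values are estimated counts per Ensembl gene, already whole numbers and not scaled for depth. Reads removed for GC content could lower GC-rich genes, which cannot be checked from counts.

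Symbols and positions came from GENCODE M21, which held 35422 of 35727 genes. Counts were fitted with edgeR 4.0.16 in R 4.3.3 (TMM scaling, low counts removed by filterByExpr at its minimum of 10 per library and 15 in total, quasi-likelihood test, 6 residual degrees of freedom), and p-values were adjusted by Benjamini-Hochberg over 15506 genes with a threshold of 0.05. Standard errors are the log2 fold change divided by the root of the F statistic. Log2 CPM used a prior count of 2. The scripts were tested on simulated data. DESeq2 1.42.0, other size factors, other filters, single-time-point fits, replicate blocks and leave-one-out fits were alternatives. The 5 genes and the lists were chosen with earlier results of these data known. From each list, the 4 genes called at the most time points were eligible to be named, ties going to the larger mean absolute change, plus the 3 genes nearest in profile to each of the 5. The cell type markers, *Sox17*, *Erg*, *Hes2*, *Hes3*, *Hes5*, *Tle1*, *Tle2*, *Tle3*, *Tle6*, *Nrp1* and *Myc* are named beyond that rule and were chosen after their values were seen. Results for some genes on the lists are not reported here. Of the 15 corepressor symbols listed, 1 was not matched. Counts in 2 libraries differed by far more than counting error in every group, so no library was a duplicate, and floors cover counting error only.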

Additional observations from a re-analysis of the deposited data

Results flagged for a closer look

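In 16 genes of the pathway, vascular and marker lists, the effect of *Sox17*-*Erg* differed between 4 weeks and Day 3 by the edgeR interaction test. Of these differences, 13 were above 0 and 3 below. Of all genes tested, 3.21% passed this test. Of the 5 *Hey* and *Hes* genes 0 passed it, which at that share does not set them apart. Each value below is the log2 fold change over control at 4 weeks minus that at Day 3, and no explanation was tested. Of the 16 calls, 3 held in all 12 fits that each left out 1 library (*Efnb2*, *Myh11* and *Postn*), and of the other Notch pathway genes, 5 were called with a difference above 0 and 1 below, against 1 to 6 and 0 to 1 over those fits. The lowest, 1, was without *Sox17*-*Erg* replicate 1 of 4 weeks, the count was 2 without either control library of 4 weeks, control replicate 2 of Day 3, either *Sox17*-*Erg* library of Day 3 or *Sox17*-*Erg* replicate 2 of 4 weeks, and 3 without control replicate 1 of Day 3. Among receptors and ligands, the difference was 1.44 for *Notch1* (SE 0.233, edgeR adjusted p = 0.014), 1.98 for *Notch3* (SE 0.362, edgeR adjusted p = 0.022) and 4.2 for *Jag2* (SE 0.891, edgeR adjusted p = 0.039). Among targets it was 2.45 for *Efnb2* (SE 0.348, edgeR adjusted p = 0.0083) and 6.63 for *Nrarp* (SE 1.48, edgeR adjusted p = 0.048), which rests on 5 and 0 control counts at 4 weeks, whereas it was -1.43 for *Myc* (SE 0.3, edgeR adjusted p = 0.037). *Id4* differed by 2.2 (SE 0.427, edgeR adjusted p = 0.029) and *Bhlhe41* by 1.22 (SE 0.274, edgeR adjusted p = 0.049). Of the arterial genes, *Bmx* differed by 2.8 (SE 0.581, edgeR adjusted p = 0.037) and *Sema3g*, with 4 to 9 counts in the control libraries, by 6.7 (SE 1.46, edgeR adjusted p = 0.043), and *Nrp1* by -1.85 (SE 0.329, edgeR adjusted p = 0.02). Among cell type markers the difference was 3.54 for *Pecam1*, 4.4 for *Postn*, 3.12 for *Myh11*, 3.36 for *Cspg4* and -2.84 for *Abcc9*, with edgeR adjusted p between 0.0013 and 0.022.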

How the results depend on the processing

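For *Sox17*-*Erg* against control, all 135 values of the 5 genes under settings other than leaving out a library kept their direction and their side of the threshold. Of the 180 leave-one-out values, 171 did, 7 lost the call and 2 changed sign. Over the leave-one-out fits, genes higher numbered from 1 to 3 (Day 3), from 3 to 4 (Day 7) and 4 (4 weeks), and *Hes6* at 4 weeks ran from -0.18 to 0.3. Under DESeq2 and with no filter on low counts, the 0 genes became 1 for the larger effect at 4 weeks than at Day 3, 1 lower in control from Day 3 to Day 7, 1 higher in control from Day 3 to 4 weeks and 1 higher in *Sox17*-*Erg* from Day 3 to Day 7. For *Sox17*-*Erg* from Day 7 to 4 weeks, the 1 gene became 2 with no filter and 0 at an adjusted p under 0.01. Leave-one-out counts of genes higher ran from 0 to 1 for control from Day 3 to 4 weeks and for *Sox17*-*Erg* over both shorter intervals, and from 2 to 3 for *Sox17*-*Erg* over the whole interval. Over the same fits, *Hes1* and *Hes6* in control from Day 3 to 4 weeks ran from -0.39 to 0.07 and from -0.43 to 0.03, *Hey2* in *Sox17*-*Erg* from Day 3 to Day 7 from -0.26 to 0.3, and *Hes6* in *Sox17*-*Erg* from Day 3 to 4 weeks from -0.05 to 0.38. On linear CPM, the exact permutation p of *Hes6* was 0.96 and its sign turned. The other Notch pathway genes higher (9, 13 and 15 at the 3 time points) moved by over 1.5 times to 14 at Day 3 with the block within time points, to 4 and 8 at Day 3 and Day 7 at an adjusted p under 0.01 and to 8 at Day 7 in a fit of that day alone, with 4 at Day 3 without either control library or *Sox17*-*Erg* replicate 1 of that day, 8 at Day 7 without control replicate 1 or *Sox17*-*Erg* replicate 1 of that day, and leave-one-out ranges of 4 to 11, 8 to 13 and 11 to 15. Those lower (1, 3 and 5) ran from 0 to 9, 0 to 6 and 0 to 10 over all settings. Of the 29, 45 and 70 genes of all lists called against control at Day 3, Day 7 and 4 weeks, beside the 5, 9, 20 and 31 were called in all 12 leave-one-out fits and 6, 6 and 14 in at most 6 of them. The cause was not tested, except that a fit without a filter tested 25680 genes.

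Replicate numbers were shared by 2 pairs per comparison, and nothing in the labels ties a number to an isolation. Deviations of same-numbered libraries correlated across genes at 0.19, 0.3 and 0.17 between treatments at Day 3, Day 7 and 4 weeks. With the replicate block the counts of genes higher were 3, 4 and 4, as without it, and *Hey2* in *Sox17*-*Erg* from Day 3 to Day 7 turned to -0.01, and no other call of the 5 genes changed against control. Because control libraries of Day 7 and 4 weeks correlated at -0.11, a block with the numbers crossed at 4 weeks was added after seeing the data and gave 3, 4 and 4.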
